A study of Mus musculus with 16 samples.

Results

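TGF-beta changed the RNA levels of 5950 of 15494 tested genes in mouse epicardial cells that carried a control siRNA. The comparison set 2 libraries of MEC1 cells with control siRNA and TGF-beta (labelled Cont_si_TGFB) against 2 libraries of MEC1 cells with control siRNA alone (labelled Cont_si), and it took in all 46348 genes of the deposited count table. MEC1 is an established line derived from mouse epicardium, the mesothelium on the outside of the heart, and all the cells compared here carried the control siRNA. The series holds 16 libraries in 8 groups, the other 12 having received PRMT1 siRNA, p53 siRNA or both, without or with TGF-beta. Its design text calls the 2 libraries of a group biological replicates and does not say how the cultures were kept apart, so the p-values below measure the spread between these libraries. The 4 libraries held 19617874 to 24634902 counts. All 16 libraries supplied the estimate of the spread, and genes with an adjusted p under 0.05 in edgeR's quasi-likelihood test (Benjamini-Hochberg over the tested genes) are said to be called. CPM are counts brought to a common library size after scaling of the libraries, values in parentheses are log2 changes ± SE with n = 2 libraries per group, and the library pairs are given in the order replicate 1 and replicate 2.

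TGF-beta is a secreted dimer that cells store in the matrix in a latent form and release by integrins, thrombospondin or proteases. The active ligand brings type II and type I receptor kinases together, which phosphorylate SMAD2 and SMAD3. These join SMAD4, enter the nucleus and act with other factors on target genes, among them inhibitors that damp the signal. In the developing heart, epicardial cells that respond to TGF-beta lose epithelial character, build actin stress fibres, invade the heart wall and take up mural or fibroblast fates.

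The cells carried epicardial markers in both states, several of them at lower levels with TGF-beta. Upk3b went from 586 and 561 to 24.8 and 23.8 CPM and Msln from 152 and 142 to 62.5 and 57.8 CPM. The transcription factor genes Tbx18, Tcf21 and Bnc1 are given below. Wt1, an epicardial transcription factor gene, read 247 and 257 CPM without and 109 and 108 CPM with TGF-beta, and the mesothelial gene Upk1b read 174 and 173 and 49.7 and 46.5 CPM. Of the other markers of the line, Krt18, a keratin gene, stood at 95.1 and 87.6 and 102 and 97.4 CPM, while Krt8, Krt19 and Aldh1a2 stayed under 1.6 CPM in the 4 libraries. Markers of other cell types were mostly at or near 0. Of 11 endothelial markers, 4 were tested and 3 were at 0 in the 4 libraries (Tie1, Cldn5 and Sox17), and their sum ran from 10.01 to 10.3 CPM without and from 9.86 to 10.2 CPM with TGF-beta. Of 11 haematopoietic markers, 2 were tested and Adgre1, Hbb-bs and Tyrobp were at 0, with sums of 2.95 to 4.20 and 1.99 to 2.40 CPM. Of 10 adipocyte markers, 4 were tested, Adipoq, Plin1 and Cidec were at 0, and the sum of 303 to 307 CPM without and 102 to 109 CPM with TGF-beta was almost all Lpl, lipoprotein lipase, which fell (-1.57 ± 0.07). Of 11 cardiomyocyte markers, 2 were tested, Myh6, Actc1 and Actn2 were at 0, and the sum of 19.6 to 20.7 CPM without and 90.3 to 106 CPM with TGF-beta was almost all Tnnt2, cardiac troponin T, which rose (2.35 ± 0.21). Of 9 neural markers, 3 were tested and Sox10 and Elavl4 were at 0, and the sum went from 9.19 and 10.7 to 19.4 and 22.0 CPM as Tubb3, a beta-tubulin gene, rose (3.25 ± 0.20) and Nefl, a neurofilament gene, fell (-2.98 ± 0.21). Of 7 skeletal muscle markers in the table, 1 was tested and 5 were at 0. The part of these markers in the results below was not tested. Rn18s-rs5, a ribosomal RNA gene, took 1.55% and 2.29% of the counts without and 3.17% and 1.34% with TGF-beta.

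Of the genes tested, 2752 (17.8%) were called higher and 3198 (20.6%) lower with TGF-beta, and these shares are the background for every count of list members below. The falls were larger: 345 genes rose and 616 fell by 4-fold or more, 93 and 152 by 16-fold or more, and 45 and 92 by 32-fold or more. The rises lay among more abundant RNAs. Of genes with a mean of 100 CPM or more, 27.5% rose and 16.0% fell, whereas of genes between 5 and 20 CPM 15.1% rose and 29.4% fell. Genes called higher held 20.9% and 20.8% of the counts of the untreated libraries and 32.4% and 33.1% of those of the treated libraries, and genes called lower went from 19.4% and 19.3% to 9.22% and 9.86%. The median log2 change over all genes tested was -0.009, with quartiles at -0.406 and 0.342. By annotation class, 29 of 367 lincRNA genes rose and 62 fell, and of 41 genes of bidirectional promoter lncRNAs 1 rose and 14 fell. Leaving out 1 of the 4 libraries in turn gave 4358 to 4656 called genes, and 3691 genes (62.0% of the 5950) kept the call without any 1 of them. A fit of 15 libraries, which leaves out a library outside this comparison that stands apart from its partner (p53 siRNA with TGF-beta, replicate 2), gave 8366, of which 5948 were among the 5950. The 32 gene lists written for this comparison hold 766 genes of the table, of which 682 passed the filter on low counts and were tested. In bulk RNA, fewer cells with a transcript and less of it per cell cannot be told apart.

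**Figure D1:**
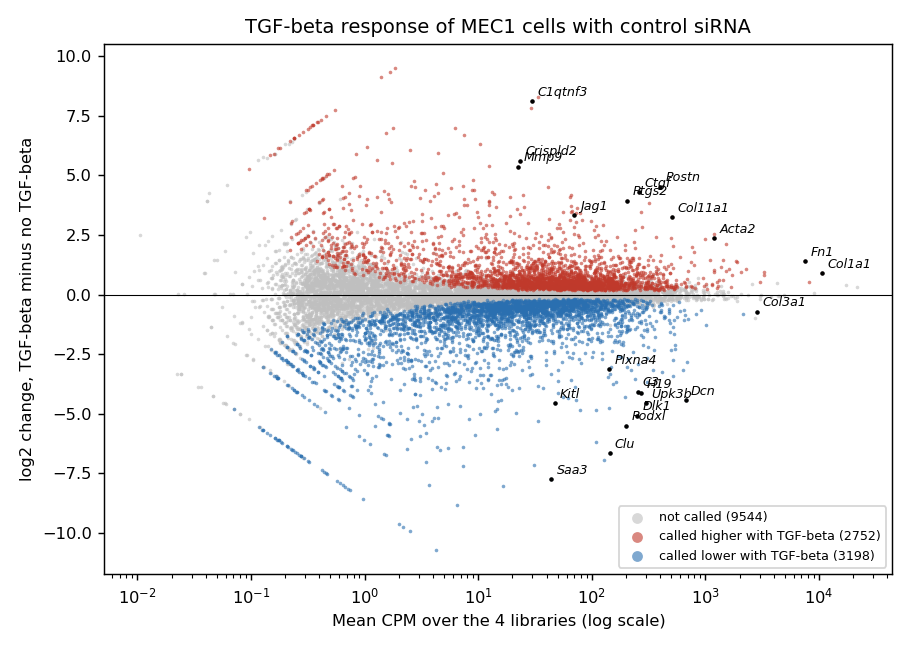
Log2 change (TGF-beta minus no TGF-beta, vertical axis) against the mean CPM of the 4 libraries (horizontal log axis) for the 15494 genes tested. Red points are the 2752 genes called higher, blue points the 3198 called lower and grey points those not called, and the slanted rows of points at the left are genes with very few counts, whose fitted changes are not bounds.

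Among the ligands and the proteins that keep them latent, 13 of 18 tested members rose and 2 fell (median 0.67). Tgfb1, which encodes the ligand TGF-beta1, went from 18.1 and 16.3 to 45.8 and 46.1 CPM (1.42 ± 0.13), a rise of the gene for the ligand itself. Tgfb2 rose less, from 76.4 and 84.7 to 102 and 98.1 CPM (0.31 ± 0.10), and Tgfb3 did not pass the test, at 126 and 124 and 129.9 and 129.97 CPM (0.06 ± 0.06, adjusted p = 0.523). Several genes of storage and release rose with Tgfb1. Ltbp1, the latent TGF-beta binding protein that anchors the ligand in the matrix, read 78.9 and 88.8 and 322 and 291 CPM (1.87 ± 0.15). Lrrc32, which holds latent TGF-beta at the cell surface, read 1.19 and 1.74 and 7.36 and 8.72 CPM (2.46 ± 0.18). Thbs1, thrombospondin 1, an activator of latent TGF-beta, read 525 and 603 and 2529 and 2422 CPM (2.13 ± 0.19). The integrin subunit gene Itgav, part of the integrins that release the ligand, rose by 0.94 ± 0.20, and Ltbp2 and Ltbp3 rose by 0.53 ± 0.12 and 0.67 ± 0.06, while Ltbp4 fell (-0.58 ± 0.08). The activin branch moved as well. Inhba, the activin A subunit gene, went from 4.47 and 7.64 to 48.99 and 48.4 CPM (3.01 ± 0.55), and its secreted antagonist Fstl3 from 12.9 and 10.4 to 94.1 and 88.7 CPM (2.96 ± 0.16). The antagonist Fst, follistatin, fell from 9.69 and 9.48 to 6.76 and 6.69 CPM (-0.51 ± 0.09). The library pairs did not overlap for any of these genes. That held for Tgfb3 too, whose pairs lay close together and which did not pass the test. Pairs that do not overlap therefore do not mark a change by themselves.

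The receptors went both ways, with 6 of 16 tested members higher and 5 lower (median -0.15). Of the type I and type II receptors and betaglycan, which bind TGF-beta itself, 2 fell and 1 did not pass the test. Tgfbr2, the type II receptor gene, went from 261 and 274 to 158 and 159 CPM (-0.75 ± 0.08). Tgfbr3, betaglycan, the co-receptor that presents TGF-beta2, fell from 106 and 124 to 18.7 and 23.00 CPM (-2.46 ± 0.18). Tgfbr1, the type I receptor gene, read 60.3 and 67.7 and 51.2 and 54.00 CPM (-0.28 ± 0.19, adjusted p = 0.269, but 0.00243 in the fit of 15 libraries). The activin type I receptor gene Acvr1b also fell, from 22.5 and 22.4 to 12.7 and 13.5 CPM (-0.78 ± 0.15). Some receptors of the BMP side were among those that rose, and others were not. Bmpr2, the BMP type II receptor gene, went from 107 and 147 to 275 and 279.8 CPM (1.13 ± 0.27), and the type I receptor gene Acvr1 from 41.4 and 42.4 to 74.3 and 75.8 CPM (0.84 ± 0.09). Bmpr1b, another BMP type I receptor gene, had 1 and 2 counts without and 60 and 83 counts with TGF-beta, and Acvrl1 had 1 and 0 and 15 and 24 counts; both were called higher, and no fold is given because the untreated libraries held so few counts. Bmpr1a, also a BMP type I receptor gene, did not pass, at 166 and 186 and 145 and 150 CPM (-0.26 ± 0.15, adjusted p = 0.194). Of the co-receptor genes, Rgma rose (0.77 ± 0.14) and Rgmb fell (-0.43 ± 0.09). Amhr2 had 8 and 16 counts without and 1 and 0 with TGF-beta and was called lower. Without replicate 2 of the treated group, 4 members of the list were lower. Cd109, a co-receptor that inhibits TGF-beta signalling, rose (0.63 ± 0.13).

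Of the SMAD proteins and their cofactors, 5 of 15 tested members rose and 3 fell (median 0.26), with 8 and 3 in the fit of 15 libraries and 3 and 3 without replicate 1 of the treated group. Smad3, which carries the TGF-beta signal, fell from 94.4 and 108 to 54.9 and 54.00 CPM (-0.89 ± 0.12), while its partner Smad4 rose from 73.3 and 71.9 to 90.2 and 88.3 CPM (0.30 ± 0.09) and Smad2 gave 0.26 ± 0.20 (adjusted p = 0.347). The BMP-activated SMADs split, with Smad1 higher (0.67 ± 0.09) and Smad9 lower (-0.95 ± 0.21). The feedback inhibitors rose more often, 11 of 14 against 3 that fell (median 0.82). Ski, Skil and Tgif1, all called higher, stand in both lists. Smad7, which recruits ubiquitin ligases to the receptor, read 14.9 and 13.2 and 37.98 and 36.2 CPM (1.40 ± 0.09). The ligase genes that act with it, Smurf1 (1.43 ± 0.10), Smurf2 (0.77 ± 0.17), Nedd4l (0.85 ± 0.08) and Wwp2 (0.79 ± 0.10), rose with it. Pmepa1, which sequesters SMAD2 and SMAD3, went from 46.8 and 43.00 to 505 and 490.2 CPM (3.47 ± 0.10), its relative Ldlrad4 from 5.09 and 6.29 to 23.5 and 26.3 CPM (2.13 ± 0.15), and the SMAD corepressor gene Skil from 48.9 and 53.5 to 184 and 183 CPM (1.84 ± 0.20). The 3 that fell were Bambi, a decoy receptor (14.6 and 13.1 to 5.23 and 5.12 CPM, -1.42 ± 0.15), Smad6, the inhibitor of BMP SMADs (-0.71 ± 0.09), and Dact2. Dact2 had only 9 and 12 counts without and 1 and 2 with TGF-beta (-2.69 ± 0.89). Bambi, Smad6 and the Id genes are known as BMP targets. Id1 read 42.8 and 33.2 and 14.9 and 13.1 CPM (-1.44 ± 0.21), and the fall was seen in both treated libraries.

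The list of cell cycle genes known from the cytostatic arm of TGF-beta signalling mixes inhibitor genes with others, such as Myc, Id genes and cyclins. Its counts therefore do not show whether a cytostatic response took place. Of 14 tested members, 6 rose and 7 fell (median -0.15). Those that fell include Id1, given above, Id2 (-3.36 ± 0.17) and Id3 (-1.76 ± 0.19). Cdkn2a, the gene of p16Ink4a and p19Arf, went from 2.96 and 2.999 to 10.7 and 10.6 CPM (1.84 ± 0.23). Cdkn1a (p21) rose as well, from 28.98 and 27.1 to 55.5 and 55.3 CPM (0.98 ± 0.07). Other inhibitor genes went down, Cdkn1b (p27) from 196 and 206 to 139.6 and 146 CPM (-0.49 ± 0.10), Cdkn2c (p18) from 71.2 and 64.2 to 42.8 and 39.2 CPM (-0.73 ± 0.11) and Cdkn1c (p57) by -2.01 ± 0.30. Cdkn2b (p15), a classical cytostatic target next to Cdkn2a, had 0 counts in the 4 libraries and was not tested. Myc, which TGF-beta represses in epithelial cells, rose here from 30.04 and 26.7 to 73.8 and 70.6 CPM (1.35 ± 0.14). Among the G1 cyclins, Ccnd1 fell from 151 and 149 to 79.7 and 78.9 CPM (-0.92 ± 0.06) while Ccnd2 rose from 331 and 367 to 508 and 509.98 CPM (0.55 ± 0.12) and Ccne1 from 12.9 and 12.4 to 26.5 and 24.2 CPM (0.997 ± 0.12). The phosphatase gene Cdc25a rose (0.51 ± 0.07). Adjusted p for the signalling and cell cycle genes given as changed was 0.0316 or less. The call of Tgfb2 was lost without replicate 1 of the untreated group or without either treated library (adjusted p from 0.059 to 0.145), that of Bmpr2 without replicate 1 of the untreated group (0.063), and those of Smad4 and Dact2 without each of the 4 libraries in turn (0.0732 to 0.111 and 0.0555 to 0.135).

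**Figure D2:**
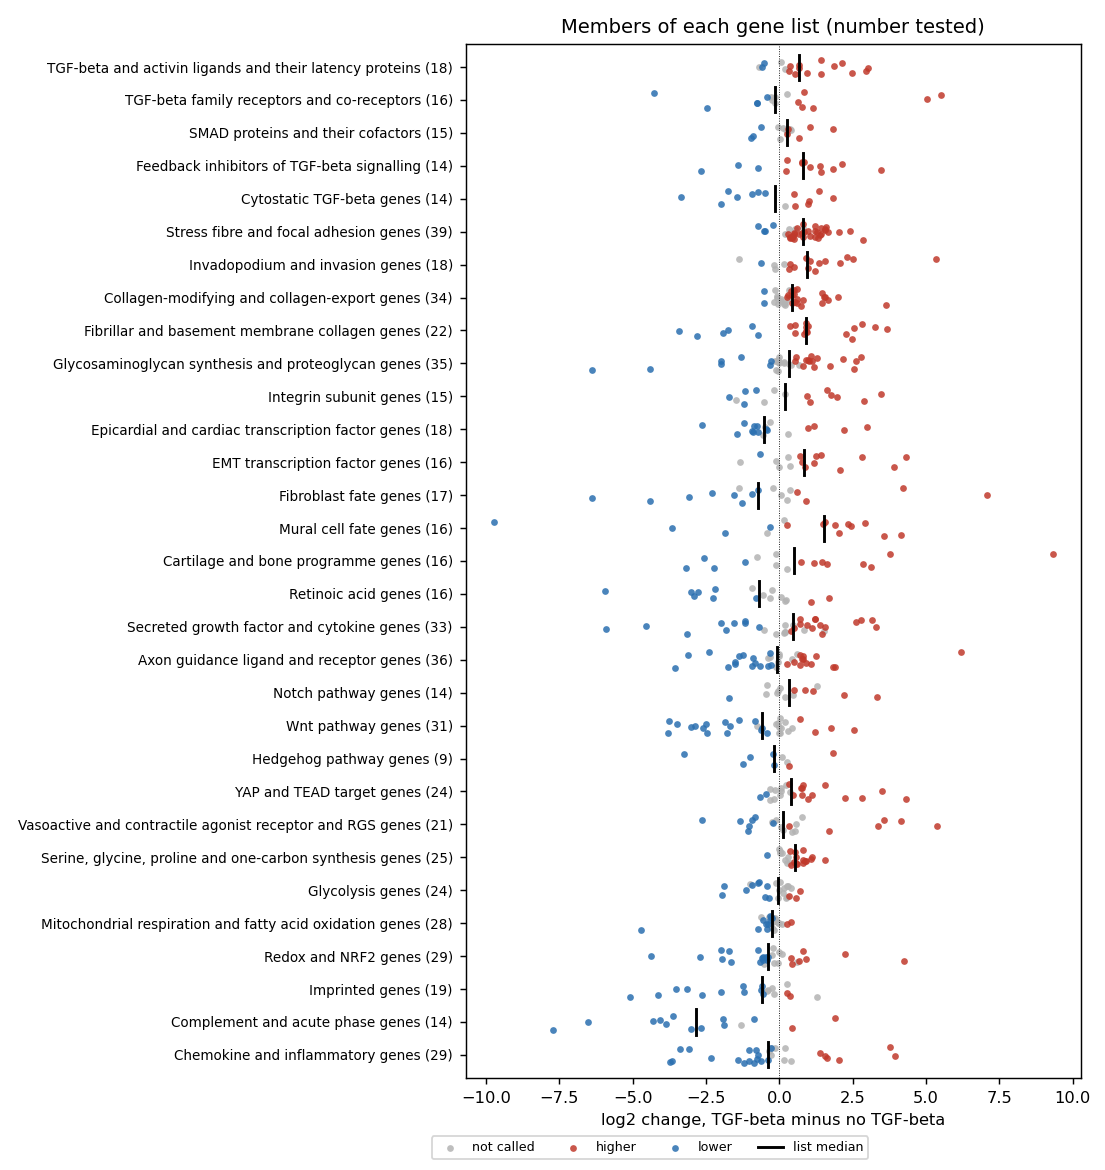
Log2 change (TGF-beta minus no TGF-beta, horizontal axis) of each tested member of the gene lists shown, 1 point per gene, with the number tested in brackets. Red points were called higher, blue lower and grey not called, and the black bar is the median of the list; the medians run from -2.86 for the complement and acute phase genes to 1.53 for the mural cell genes.

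The 15 largest rises among genes with at least 5 CPM on average were led by genes nearly silent in untreated cells. The sizes of such changes rest on few untreated counts and are uncertain. C1qtnf3, a secreted C1q and TNF related protein, went from 0.221 and 0.193 to 59.7 and 58.6 CPM (8.12 ± 0.22). Cnr1, the cannabinoid receptor gene, read 0.133 and 0.0484 and 11.9 and 12.96 CPM (6.998 ± 0.45), and Cmklr1, a receptor for chemerin, 0.3097 and 0.193 and 19.5 and 21.9 CPM (6.32 ± 0.28). The serotonin receptor gene Htr2b went from 0.398 and 0.774 to 23.1 and 25.7 CPM (5.39 ± 0.29), and Crispld2, a secreted cysteine-rich protein, from 0.752 and 1.11 to 44.9 and 46.4 CPM (5.62 ± 0.14). The others were Megf10, Acsbg1, Ctsw, Mmp9, Pkp1, Fxyd5, Postn, Sorcs2, Mfap4 and Sox8, with log2 changes from 4.38 for Sox8 to 8.28 for Megf10. Mfap4, a microfibril-associated protein gene, rose by 4.48 ± 0.31, and Pkp1, a desmosome plaque protein, by 4.79 ± 0.34.

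The 15 largest falls took in genes of the cell surface, the matrix and the secreted fraction. Podxl, podocalyxin, a sialomucin of the free cell surface, fell from 371 and 412 to 8.88 and 8.47 CPM (-5.50 ± 0.18). Clu, the extracellular chaperone clusterin, fell from 295 and 273 to 2.34 and 3.22 CPM (-6.65 ± 0.23). Lum, the small proteoglycan lumican, went from 15.1 and 14.03 to 0.109 and 0.212 CPM (-6.41 ± 0.39) and Krt15, a keratin gene, from 14.7 and 14.6 to 0 and 0.169 CPM (-7.19 ± 0.43). Angptl7 (-8.04 ± 0.29), Cyp2s1 (-7.15 ± 0.18), Pkhd1l1 (-6.92 ± 0.28), Sh2d4a (-5.89 ± 0.26), Vat1l (-5.63 ± 0.16), Thsd4 (-5.31 ± 0.25), Saa3 (-7.73 ± 0.34), Gpm6a (-6.18 ± 0.12) and Cldn15 (-5.22 ± 0.26) were also among the 15. Tnxb, tenascin X, had 273 and 292 counts without and 0 and 1 with TGF-beta, so its fall is given without a fold. Saa3 has near copies that can share its reads, and Gm20425 (-6.41 ± 0.61) overlaps Trf and Srprb, so reads of these cannot be assigned with certainty. The adjusted p of the genes among the largest rises and falls was 5.72e-06 or less.

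Genes of the actin cytoskeleton rose together. Of 39 stress fibre and focal adhesion genes tested, 31 rose and 4 fell (79.5% and 10.3%, median 0.82). Acta2, smooth muscle alpha-actin, went from 426 and 356 to 2111 and 1890.1 CPM (2.36 ± 0.20), and the cytoplasmic actin genes Actb and Actg1 rose by 0.82 ± 0.14 and 1.05 ± 0.13; the actin genes are close copies of each other, so their reads may be split uncertainly. Genes of crosslinkers and motors were among those that rose. Actn1, alpha-actinin 1, read 277 and 285 and 675 and 626 CPM (1.21 ± 0.08), Flna, filamin A, 1002 and 1135 and 2857 and 2677 CPM (1.37 ± 0.18), and Myh9, the heavy chain of nonmuscle myosin IIA, 965 and 1056 and 2755 and 2602 CPM (1.41 ± 0.12). Tpm4, a tropomyosin that coats the filaments, read 487 and 469.5 and 1115 and 1114 CPM (1.22 ± 0.08). The LIM protein genes Csrp2 (18.4 and 16.01 to 119.95 and 126 CPM, 2.84 ± 0.21) and Fhl2 (21.99 and 20.2 to 64.5 and 62.4 CPM, 1.59 ± 0.12), which link actin to transcription, rose too. Against this trend Flnc, filamin C, went down from 459 and 527 to 309 and 285 CPM (-0.73 ± 0.17) and Pxn, the focal adhesion adaptor paxillin, from 124 and 124 to 87.4 and 85.4 CPM (-0.52 ± 0.07), with Fhl1 and Parva the other members that fell. Vcl, vinculin, read 276 and 327 and 452 and 423 CPM and missed the threshold (0.54 ± 0.21, adjusted p = 0.0657), although it passed in the fit of 15 libraries (adjusted p = 6.4e-05). Rhoa, the gene of the GTPase that drives stress fibres, did not pass the test, at 414 and 385 and 448 and 453 CPM (0.17 ± 0.09, adjusted p = 0.143). Arhgef2, a RhoA exchange factor, rose from 132 and 139.8 to 255 and 258 CPM (0.92 ± 0.07) and Arhgap22, a Rac GTPase-activating protein, from 1.37 and 0.967 to 8.28 and 8.98 CPM (2.87 ± 0.26). Arhgap29, which switches RhoA off, fell from 301 and 329.9 to 114 and 113 CPM (-1.48 ± 0.14), and so did Cdc42ep2 (-1.71 ± 0.18), Cdc42ep1 (-0.97 ± 0.09) and the exchange factor gene Net1 (-1.08 ± 0.08). Srf, serum response factor, a transcription factor of actin genes, rose from 48.4 and 41.5 to 75.1 and 69.7 CPM (0.69 ± 0.10).

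Serum response factor binds the CArG box, and the RefSeq promoters of a few genes described above show where the box lies. Sequence was matched for 10867 of the 15494 genes, 250 bases before the first listed start were searched on both strands, and 1.11% of these promoters hold a CArG box against 6 of 32 (18.8%) in the stress fibre list. The list was written around actin genes, some of which are textbook targets, so that share is a description of the list. The 6 include Vcl, which was not called, and Fhl1, which fell (-0.49 ± 0.08). The box was searched only as CC, then 6 letters that are each A or T, then GG, so a box that departs from this form was not counted. In this strict form the promoters of Acta2, Cnn1 and Tpm1 hold no box in this window, and looser forms were not searched. The stretches below, on the strand of the gene and 5′ to 3′ (build GRCm38.p6, the same coordinates as mm10), have the CArG boxes in capitals. They come from Actg1 (chr11:120348521-120348640, minus strand), Myl9 (chr2:156775248-156775367, plus strand), which rose by 1.54 ± 0.20, Fhl2 (chr1:43196793-43196912, minus strand) and Srf itself (chr17:46556163-46556279, minus strand), and were chosen, among genes that rose, after the matches were seen.
Actg1: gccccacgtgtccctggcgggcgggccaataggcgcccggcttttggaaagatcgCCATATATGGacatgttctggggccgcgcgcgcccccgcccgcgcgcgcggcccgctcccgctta
Myl9: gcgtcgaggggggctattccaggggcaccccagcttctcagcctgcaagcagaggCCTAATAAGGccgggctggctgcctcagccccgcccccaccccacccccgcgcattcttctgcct
Fhl2: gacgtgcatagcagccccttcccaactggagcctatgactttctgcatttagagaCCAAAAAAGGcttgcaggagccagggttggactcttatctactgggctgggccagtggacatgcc
Srf: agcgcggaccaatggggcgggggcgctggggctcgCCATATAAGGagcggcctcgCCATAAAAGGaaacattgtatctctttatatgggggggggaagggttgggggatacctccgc
The box lies 81 to 90 bases before the start in Actg1 and 152 to 161 bases before it in Myl9, and Srf holds 2 boxes.

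A second set of actin-linked genes held targets of the coactivators YAP and TAZ and their DNA-binding partners of the TEAD family. It also held genes of these factors themselves, such as Yap1 and Tead1. Of 24 tested members, 13 were higher and 2 lower (median 0.41), or 15 and 5 in the fit of 15 libraries. Ankrd1, a nuclear ankyrin repeat protein, went from 11.5 and 9.96 to 127 and 119 CPM (3.51 ± 0.13). The matricellular genes Ctgf (26.01 and 24.6 to 547 and 451 CPM, 4.30 ± 0.12) and Cyr61 (49.4 and 43.3 to 236 and 203 CPM, 2.24 ± 0.10) rose in both treated libraries. Nt5e, the ecto-nucleotidase CD73, read 0.929 and 1.596 and 8.12 and 9.402 CPM (2.80 ± 0.23), and Ajuba, a LIM protein that restrains the kinases upstream of YAP, 74.1 and 71.4 and 147 and 138 CPM (0.97 ± 0.06). Axl, a receptor kinase, and Crim1 fell (-0.46 ± 0.08 and -0.67 ± 0.17), and Yap1 itself read 219.96 and 232 and 232 and 237 CPM (0.06 ± 0.10, adjusted p = 0.706). TEAD factors bind the letters GGAATG, which 10.7% of all matched promoters and 10 of 18 (55.6%) of this list hold, again in a list written around known targets. The 10 include Axl and Crim1, which fell, and Amotl2 and Yap1, which were not called. The promoters of Ankrd1 (chr19:36119907-36120022, minus strand) and Cyr61, RefSeq name Ccn1 (chr3:145650028-145650143, minus strand), both of which rose, are shown with the letters, or their complement CATTCC, in capitals.
Ankrd1: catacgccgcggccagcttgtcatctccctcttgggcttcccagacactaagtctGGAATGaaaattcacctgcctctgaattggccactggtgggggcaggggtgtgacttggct
Cyr61: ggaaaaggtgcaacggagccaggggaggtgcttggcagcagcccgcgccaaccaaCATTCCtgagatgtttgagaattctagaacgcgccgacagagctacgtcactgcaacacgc
For the SMADs themselves the searched letters were CAGACA, present in 13.4% of all matched promoters, in 56 of 226 (24.8%) of those of genes that rose by 4-fold or more and in 63 of 426 (14.8%) of those of genes that fell by 4-fold or more. The AP-1 letters TGANTCA stood in 4.52%, 10.2% and 8.45% of the same sets, and the longer palindrome GTCTAGAC in 0.184%, 0% and 0.235%. Over all genes called higher, CAGACA stood in 301 of 2099 promoters (14.3%) and TGANTCA in 5.05%, near the shares of all promoters. Over all genes called lower the shares were 12.8% and 5.42%. All these shares are descriptions of letters and not of binding. Fstl3, the activin antagonist that rose by 2.96 ± 0.16, holds 1 copy of the SMAD letters, as its complement TGTCTG, 157 to 162 bases before its start (chr10:79777057-79777172, plus strand).
Fstl3: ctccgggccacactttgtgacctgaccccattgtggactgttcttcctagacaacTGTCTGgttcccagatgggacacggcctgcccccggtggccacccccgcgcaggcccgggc

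Genes used to degrade matrix and to build invadopodia rose, 13 of 18 tested against 1 that fell (median 0.94), or 13 and 3 in the fit of 15 libraries. Mmp9, a gelatinase, went from 0.841 and 1.31 to 40.6 and 46.8 CPM (5.35 ± 0.15), and Mmp2, the other gelatinase, from 331 and 336 to 1611 and 1725 CPM (2.32 ± 0.08). Its activator at the cell surface, Mmp14, read 290.1 and 297 and 602 and 623 CPM (1.06 ± 0.06). The disintegrin protease gene Adam19 read 19.9 and 21.4 and 119 and 119 CPM (2.52 ± 0.17). Plaur, the urokinase receptor gene, read 15.2 and 13.8 and 62.4 and 58.7 CPM (2.06 ± 0.14). The scaffold gene Sh3pxd2b, needed for invadopodia, gave 0.15 ± 0.22 (adjusted p = 0.638) and the actin bundler gene Fscn1 -0.19 ± 0.13 (adjusted p = 0.295). Pdpn, podoplanin, fell (-0.62 ± 0.09). The integrin genes, receptors for matrix, exchanged members, with 7 of 15 higher and 4 lower (median 0.19). Among the fibronectin and vitronectin receptor subunits, Itga5 rose from 96.00 and 102 to 388 and 377 CPM (1.95 ± 0.08) and Itgb3 from 10.3 and 11.8 to 116 and 126 CPM (3.45 ± 0.17), together with Itgb5 (1.61 ± 0.11) and Itgb1 (1.04 ± 0.08). Itga11, the subunit of a collagen receptor, rose from 2.96 and 3.29 to 24.6 and 22.2 CPM (2.90 ± 0.18). Among the receptor subunits for laminin and basement membrane collagen, Itga6 fell from 86.8 and 77.9 to 25.1 and 24.8 CPM (-1.72 ± 0.15), Itga3 from 163 and 176 to 77.00 and 74.96 CPM (-1.16 ± 0.07) and Itga1 from 32.6 and 41.4 to 16.2 and 15.8 CPM (-1.21 ± 0.17). The laminin receptor subunit gene Itga7, named after its values were seen, was called higher, with 8 and 4 counts without and 20 and 19 with TGF-beta, a call lost without replicate 2 of the untreated group (adjusted p = 0.0861) or replicate 1 of the treated group (0.0652).

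**Figure D3:**
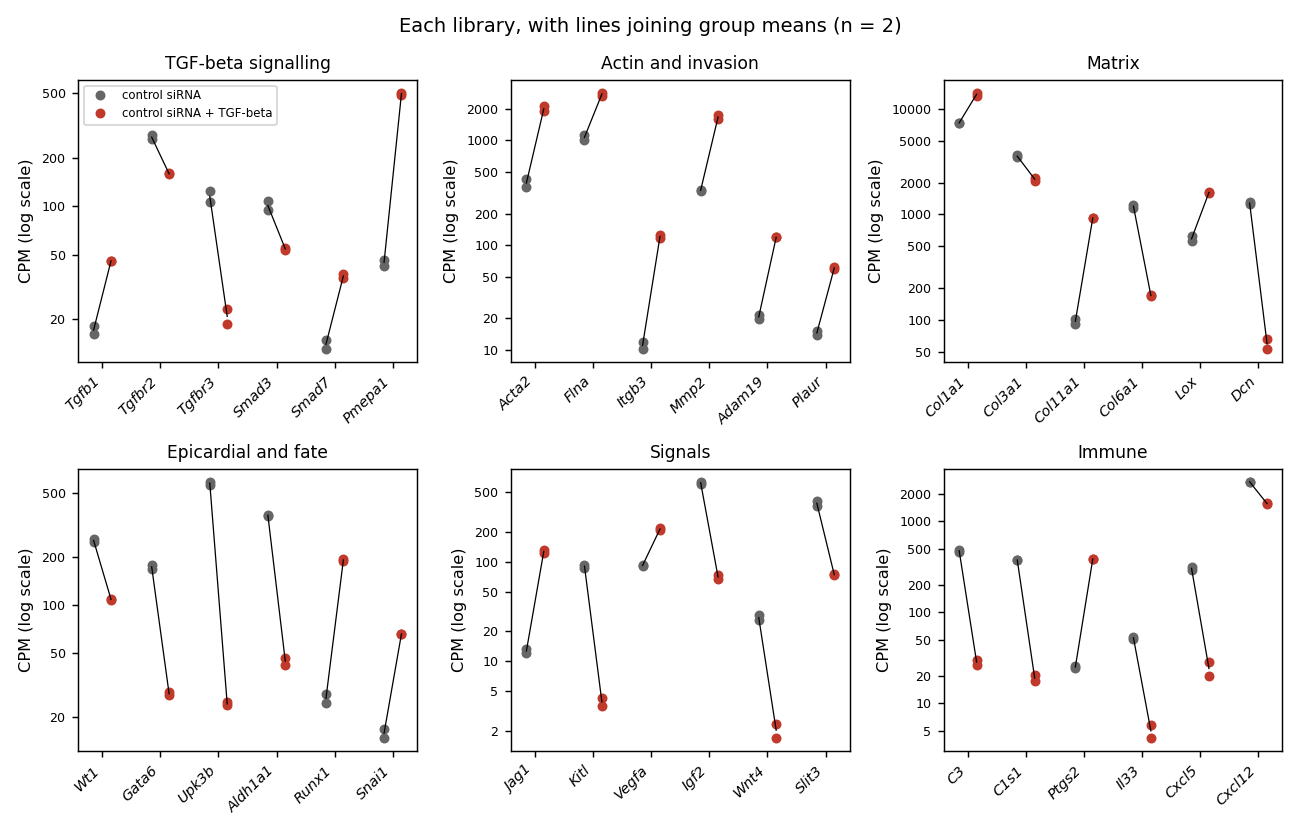
CPM (log axis) of 36 genes in each library, grey for control siRNA and red for control siRNA with TGF-beta, with black lines joining the group means (n = 2 per group). Pmepa1 rises from 46.8 and 43.00 to 505 and 490.2 CPM and Upk3b falls from 586 and 561 to 24.8 and 23.8 CPM.

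The collagen genes were recomposed, 16 of 22 tested rising and 6 falling (median 0.90). The collagen I chains rose from high levels, Col1a1 from 7375 and 7371 to 14301 and 13275 CPM (0.90 ± 0.09) and Col1a2 from 6694 and 6777 to 9606 and 9711 CPM (0.52 ± 0.08). Of the collagens that start and regulate fibrils, Col5a1 rose from 334 and 355 to 2057 and 1983 CPM (2.55 ± 0.10), Col5a3 by 2.27 ± 0.07 and Col11a1 from 91.9 and 102 to 924 and 926 CPM (3.25 ± 0.18). Col5a2, the partner chain of Col5a1, rose by 0.94 ± 0.10, about as Col1a1 did. Col7a1, the anchoring fibril collagen, went from 1.902 and 2.27 to 27.1 and 26.00 CPM (3.67 ± 0.18). Collagen VI split by chain, since Col6a1 fell from 1163 and 1231 to 170.03 and 171 CPM (-2.81 ± 0.08) and Col6a2 from 929 and 977 to 88.2 and 90.1 CPM (-3.42 ± 0.10) while Col6a3, which was taken from the list after its values were seen, rose from 10.9 and 15.3 to 83.9 and 99.8 CPM (2.81 ± 0.24). Collagen IV, the network of basement membranes, split too, with Col4a6 lower (233 and 278 to 73.1 and 79.2 CPM, -1.74 ± 0.15) and Col4a5 lower (-0.93 ± 0.17), and Col4a1 and Col4a2, named after their values were seen, higher (0.97 ± 0.11 and 0.90 ± 0.10). Col3a1, abundant in loose connective tissue, fell from 3510.2 and 3625 to 2095 and 2224 CPM (-0.72 ± 0.09), a larger loss in CPM than that of any other called gene with groups that do not overlap. Enzymes that modify, process and export collagen rose in 20 of 34 cases and fell in 2 (median 0.41). Pcolce2, an enhancer of procollagen cleavage, read 11.9 and 10.1 and 137 and 136 CPM (3.63 ± 0.13) and the cleaving protease gene Bmp1 90.6 and 89.7 and 259 and 267 CPM (1.54 ± 0.08), whereas Pcolce, the relative of Pcolce2, fell (-0.53 ± 0.16). The crosslinking enzyme genes Plod2, a lysyl hydroxylase, and Loxl2, a lysyl oxidase, rose by 1.53 ± 0.10 and 2.001 ± 0.13. The prolyl hydroxylase subunit genes P4hb and P4ha1 did not pass, at 0.17 ± 0.10 (adjusted p = 0.197) and -0.08 ± 0.07 (adjusted p = 0.423).

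Glycosaminoglycans and proteoglycans changed in kind, with 15 of 35 tested genes higher and 7 lower (median 0.33). The small leucine-rich proteoglycans that coat fibrils split: Dcn, decorin, fell from 1309 and 1256 to 53.4 and 65.7 CPM (-4.43 ± 0.15) and Fmod, fibromodulin, from 295 and 289 to 115 and 122 CPM (-1.30 ± 0.08). Bgn, biglycan, rose from 1022 and 1045 to 2112 and 2281 CPM (1.09 ± 0.08). Decorin binds and holds TGF-beta in the matrix. Has2, a hyaluronan synthase gene, rose from 16.1 and 14.7 to 93.95 and 96.3 CPM (2.63 ± 0.16). Cell surface heparan sulfate carriers also split. Gpc1, a glypican, rose from 13.1 and 11.8 to 72.9 and 71.1 CPM (2.53 ± 0.08). Gpc3 fell from 310.4 and 290.2 to 74.99 and 77.6 CPM (-1.98 ± 0.11) and the syndecan gene Sdc4 from 194 and 180.04 to 50.7 and 44.5 CPM (-1.98 ± 0.11). Of the chain-building enzymes, Chsy1 for chondroitin rose from 22.6 and 24.2 to 81.2 and 74.4 CPM (1.73 ± 0.08) and Ext1 for heparan sulfate from 124 and 124 to 291 and 305 CPM (1.27 ± 0.07). Adjusted p for the structural genes given as changed, from the actin genes to the proteoglycans, was 0.0188 or less. The calls of Crim1 and Parva were lost without replicate 2 of either group (adjusted p up to 0.0867 and 0.0959), and that of Pcolce without replicate 1 of the untreated group or either treated library (up to 0.113).

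Of 18 tested epicardial and cardiac transcription factor genes, 10 fell and 4 rose (median -0.53), or 12 and 5 in the fit of 15 libraries. Gata6 went from 177 and 169 to 27.4 and 28.7 CPM (-2.62 ± 0.06) and Bnc1, basonuclin 1, from 291 and 311 to 106 and 114 CPM (-1.45 ± 0.12). Meis2 (-0.90 ± 0.08) and Gata4 (-0.77 ± 0.08) were lower as well. Tcf21, a factor of the fibroblast lineage, fell from 12.9 and 12.3 to 6.49 and 6.61 CPM (-0.94 ± 0.11). The 4 that rose were Nfatc1, a factor of valve development (4.03 and 3.82 to 31.9 and 30.2 CPM, 2.98 ± 0.13), the T-box gene Tbx3 (1.19 ± 0.12), Scx, scleraxis of tendon (0.96 ± 0.21), and the Notch target Hey1 (2.22 ± 0.56). Tbx18, an epicardial factor gene, did not pass, at 17.7 and 17.9 and 21.2 and 21.9 CPM (0.28 ± 0.11, adjusted p = 0.0624). Tead1 and Bnc2 did not pass either (-0.34 ± 0.25, adjusted p = 0.317, and -0.57 ± 0.27, adjusted p = 0.122). Of the factors that drive epithelial to mesenchymal transition, 10 of 16 tested rose and 1 fell (median 0.82). Etv4, an ETS factor, read 1.24 and 1.31 and 26.5 and 24.4 CPM (4.32 ± 0.13), Foxc2 1.86 and 1.26 and 25.5 and 21.3 CPM (3.89 ± 0.22) and the chromatin protein gene Hmga2 63.97 and 71.6 and 464 and 499.9 CPM (2.83 ± 0.08). Snai1 rose from 16.9 and 14.9 to 66.3 and 66.1 CPM (2.05 ± 0.14). Twist1 fell from 36.9 and 32.8 to 20.7 and 23.3 CPM (-0.66 ± 0.17) and Zeb1 did not pass (0.35 ± 0.20, adjusted p = 0.193).

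Mural cell genes rose in 10 of 16 cases and fell in 4 (median 1.53; 10 and 2 without replicate 2 of the treated group), and fibroblast genes rose in 4 of 17 and fell in 8 (median -0.72). On the mural side Pdgfrb, the receptor that recruits pericytes, went from 56.8 and 61.9 to 160.4 and 173 CPM (1.49 ± 0.10), Mcam, a pericyte and smooth muscle adhesion molecule, from 21.4 and 22.7 to 85.1 and 78.2 CPM (1.89 ± 0.11), and Rgs5, a pericyte regulator of G protein signalling, from 0.398 and 0.484 to 5.99 and 9.53 CPM (4.14 ± 0.30). Kcnj8, a potassium channel gene of pericytes, went the other way, from 108 and 83 counts to 0 in both treated libraries, at least 30.3-fold lower against a floor of 3 counts per library. The myosin kinase gene Mylk also fell, from 126 and 162 to 36.9 and 42.5 CPM (-1.86 ± 0.26). On the fibroblast side Pdgfra, the receptor that marks cardiac fibroblasts, fell from 837 and 951 to 171 and 192 CPM (-2.30 ± 0.19), Ly6a (Sca-1) from 31.9 and 30.6 to 3.22 and 4.11 CPM (-3.08 ± 0.27) and Cd34 from 133 and 136 to 46.8 and 44.6 CPM (-1.56 ± 0.08). Pi16, a gene of adventitial fibroblasts, rose from 0.221 and 0.0967 to 2.997 and 3.13 CPM (4.21 ± 0.46), and Meox1, a homeobox gene of activated fibroblasts, from 0 in both untreated libraries to 13 and 16 counts, at least 4.99-fold higher. The other fibroblast list members that rose were the abundant Col1a1 (0.90 ± 0.09) and Vim. The summed CPM of the fibroblast list went up, from 15762 and 15859 to 19850 and 18874. Cartilage and bone genes formed a further group, 8 of 16 higher and 4 lower (median 0.48). Runx1, a Runt factor, went from 24.6 and 27.96 to 193 and 189 CPM (2.86 ± 0.11), Spp1, osteopontin, from 13.3 and 13.4 to 104 and 128 CPM (3.12 ± 0.18), and Acan, aggrecan, from 0 in both untreated libraries to 70 and 67 counts, at least 23.9-fold higher. Alpl, the alkaline phosphatase of mineralising cells, fell from 6.59 and 7.01 to 1.04 and 0.508 CPM (-3.18 ± 0.23) and Mgp, an inhibitor of mineralisation, from 5.97 and 5.76 to 1.09 and 0.889 CPM (-2.57 ± 0.32).

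Of 16 tested genes of retinoic acid, a vitamin A derivative that the epicardium supplies to the heart, 7 fell and 2 rose (median -0.69), the latter 1 to 3 when 1 of the 4 libraries was left out. Aldh1a1, which makes retinoic acid, fell from 365 and 359.9 to 47.03 and 42.6 CPM (-3.02 ± 0.09), and the retinol and retinaldehyde enzyme genes Dhrs9 and Dhrs3 from 24.4 and 28.7 to 3.87 and 3.94 CPM (-2.76 ± 0.18) and from 38.6 and 34.2 to 4.74 and 4.83 CPM (-2.93 ± 0.16). The receptor gene Rarb, itself a retinoic acid target, fell from 22.8 and 21.4 to 3.98 and 5.21 CPM (-2.26 ± 0.14). The receptor gene Rarg read 70.9 and 69.1 and 71.6 and 72.9 CPM (0.05 ± 0.09, adjusted p = 0.716). Cyp26a1, which degrades retinoic acid, was 1 of the 2 that rose, from 1.15 and 1.11 to 2.45 and 2.33 CPM (1.07 ± 0.22).

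Secreted growth factors switched, with 15 of 33 tested genes higher and 9 lower (median 0.47). Several ligands of vessels and mural cells were among those that rose. Angpt1, angiopoietin 1, went from 8.096 and 8.900 to 68.2 and 84.2 CPM (3.17 ± 0.19), and Pdgfb from 2.65 and 2.95 to 20.4 and 18.5 CPM (2.79 ± 0.12). Vegfa rose from 90.4 and 93.2 to 208 and 220.2 CPM (1.22 ± 0.08) and Vegfc from 32.6 and 32.5 to 85.9 and 91.4 CPM (1.45 ± 0.11). Hbegf, a ligand of the EGF receptor, rose from 3.495 and 3.63 to 35.8 and 34.01 CPM (3.29 ± 0.15). Among those that fell were Igf2, insulin-like growth factor 2, from 610.2 and 642 to 66.5 and 73.8 CPM (-3.16 ± 0.08), Kitl, stem cell factor, from 87.2 and 93.8 to 4.25 and 3.52 CPM (-4.55 ± 0.16), and Fgf10 from 33.1 and 39.04 to 10.5 and 10.1 CPM (-1.81 ± 0.12). Fgf18 fell from 6.68 and 5.47 to 0.218 and 0 CPM (-5.91 ± 0.44) and Figf, vascular endothelial growth factor D, by -1.53 ± 0.10.

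Axon guidance genes, which also steer migrating mesenchymal cells, divided almost evenly, 13 of 36 higher and 15 lower (median -0.09). The netrin ligand gene Ntn1 rose from 38.3 and 38.7 to 134 and 138 CPM (1.82 ± 0.09) and the netrin receptor gene Unc5b from 148 and 153 to 369.7 and 353 CPM (1.26 ± 0.12). The semaphorin ligand genes Sema3c and Sema6a fell, from 266 and 286 to 96.1 and 95.4 CPM (-1.53 ± 0.14) and from 12.03 and 13.1 to 0.981 and 1.14 CPM (-3.54 ± 0.15). Sema7a had 0 and 1 counts without and 34 and 54 with TGF-beta and Sema4d (named after its values were seen) rose by 1.90 ± 0.28. Plexin genes, a family of semaphorin receptor genes, went both ways. Plxna4 went from 219.8 and 291 to 28.9 and 29.9 CPM (-3.12 ± 0.28) and Plxnd1 from 95.03 and 103 to 171 and 172 CPM (0.79 ± 0.10). Plxnb1 was not called. Slit3, a secreted repellent, went from 364 and 413 to 73.6 and 74.7 CPM (-2.39 ± 0.15), and Ephb2, an ephrin receptor gene, rose (1.08 ± 0.09).

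Of the classical developmental pathways, Notch rose in 5 of 14 members and fell in 1 (median 0.33), Wnt rose in 4 of 31 and fell in 16 (median -0.60), and Hedgehog rose in 2 of 9 and fell in 5 (median -0.20). The 5 Hedgehog falls became 3 with RLE factors, with no low-count filter, with the replicate block and without any 1 of the 4 libraries. The Notch counts became 7 and 3 in the fit of 15 libraries. Jag1, a Notch ligand gene, went from 12.03 and 13.3 to 132 and 124 CPM (3.33 ± 0.19), and the Notch target Hes1 rose from 21.9 and 19.6 to 48.5 and 42.7 CPM (1.14 ± 0.15). The glycosyltransferase gene Lfng was higher (0.87 ± 0.11) and the ligand gene Jag2 lower (-1.72 ± 0.36). On the Wnt side the ligand gene Wnt4 fell from 29.2 and 25.7 to 2.34 and 1.69 CPM (-3.78 ± 0.17), the agonist gene Rspo1 from 34.7 and 34.8 to 5.18 and 6.27 CPM (-2.59 ± 0.14) and the antagonist gene Sfrp1 from 140.4 and 145 to 18.7 and 20.5 CPM (-2.86 ± 0.09). Nkd1, a target and inhibitor of beta-catenin signalling, fell too, from 5.397 and 6.05 to 0.926 and 1.101 CPM (-2.48 ± 0.17). The 4 Wnt genes that rose were Wnt11 (3.72 and 3.096 to 21.4 and 18.4 CPM, 2.54 ± 0.20), Ror2 (2.21 and 2.47 to 8.01 and 7.88 CPM, 1.76 ± 0.13), Wnt5b (1.23 ± 0.26) and Lef1 (0.70 ± 0.18). Wnt11, Wnt5b and the receptor Ror2 are known for signalling without beta-catenin. Gas1, a Hedgehog co-receptor gene, fell from 784 and 735 to 77.8 and 80.3 CPM (-3.26 ± 0.11) and Cdon, another co-receptor gene, from 381 and 454 to 174 and 181 CPM (-1.23 ± 0.22). The Hedgehog target Gli1 rose from 0.619 and 0.5805 to 1.96 and 2.29 CPM (1.82 ± 0.24). Receptors for vasoactive agonists and RGS proteins went 6 up and 7 down of 21 (median 0.12), or 7 and 4 without replicate 1 of the treated group. Rgs4, which shortens G protein signals, rose from 2.21 and 2.23 to 23.7 and 21.9 CPM (3.35 ± 0.14) and Ednra, the endothelin receptor gene, from 0.0885 and 0.145 to 1.25 and 1.57 CPM (3.56 ± 0.43). S1pr3, a sphingosine phosphate receptor gene, fell from 25.4 and 25.5 to 11.6 and 12.4 CPM (-1.09 ± 0.09). Adjusted p for the transcription factor, fate and signal genes given as changed was 0.00962 or less. Hey1 and Lef1 lost the call without replicate 2 of the untreated group (adjusted p = 0.0645 and 0.0825), and Twist1 without replicate 1 of either group (up to 0.072).

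In metabolism the clearest group was amino acid supply: of 25 genes for serine, glycine, proline and one-carbon synthesis and for amino acid import, 16 rose and 1 fell (median 0.52). The mitochondrial folate enzyme gene Mthfd2 went from 115 and 107 to 231 and 232 CPM (1.06 ± 0.12), and Aldh18a1, the first enzyme of proline synthesis, from 206 and 202 to 304 and 294 CPM (0.55 ± 0.06). The importer genes Slc1a4, Slc7a5 and Slc7a11 rose by 1.12 ± 0.07, 0.91 ± 0.08 and 1.57 ± 0.19. Phgdh, the first enzyme of serine synthesis, read 359 and 316 and 388 and 374 CPM (0.17 ± 0.15, adjusted p = 0.4). Glul, glutamine synthetase, was the member that fell (-0.43 ± 0.08). Glycolysis genes rose in 3 of 24 cases and fell in 9 (median -0.04), a count that became 8 and 9 in the fit of 15 libraries. Hk2, hexokinase 2, rose from 62.7 and 67.7 to 107 and 104 CPM (0.69 ± 0.11). The transporter genes Slc2a3 for glucose and Slc16a1 for lactate fell from 22.3 and 25.6 to 6.05 and 6.23 CPM (-1.96 ± 0.14) and from 256 and 250.2 to 66.9 and 68.5 CPM (-1.90 ± 0.07). Of the respiration and fatty acid oxidation genes 2 of 28 rose and 10 fell (median -0.24), or 2 and 20 with 15 libraries, and 4 to 6 fell when any 1 of the 4 libraries was left out. Most of these falls were small, such as Sdha, a succinate dehydrogenase subunit (-0.46 ± 0.07), but Ppargc1a, the coactivator PGC-1alpha that drives mitochondrial genes, went from 7.52 and 9.09 to 0.272 and 0.339 CPM (-4.72 ± 0.23). Redox genes rose in 7 of 29 cases and fell in 14 (median -0.39). Nox4, an NADPH oxidase that makes hydrogen peroxide, rose from 1.81 and 2.32 to 9.81 and 9.57 CPM (2.23 ± 0.18). The glutathione transferase genes Gsta4 (282 and 247 to 66.05 and 67.2 CPM, -1.99 ± 0.17) and Mgst1 (222 and 207 to 28.7 and 37.1 CPM, -2.70 ± 0.15) fell.

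Imprinted genes, many of them growth regulators of the fetus, fell in 11 of 19 cases and rose in 2 (median -0.58). Dlk1, a paternally expressed membrane protein gene, went from 525 and 444 to 14.8 and 13.9 CPM (-5.08 ± 0.18), and H19, a maternally expressed noncoding RNA, from 516 and 518 to 30.1 and 29.2 CPM (-4.12 ± 0.13). Plagl1, a zinc finger factor, fell from 417 and 469.6 to 40.4 and 36.7 CPM (-3.52 ± 0.23) and Mest from 524 and 526 to 83.7 and 84.6 CPM (-2.64 ± 0.07). Igf2, the neighbour of H19, fell as well, and the log2 changes of these 5 genes were -2.64 or lower. Grb10, an inhibitor of insulin and IGF receptors, and the amino acid transporter gene Slc38a4 rose slightly (0.36 ± 0.12 and 0.28 ± 0.08), and Peg3 gave -0.25 ± 0.27 (adjusted p = 0.511). The counts do not separate the parental alleles.

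The complement list had the lowest median of all, -2.86, with 11 of 14 tested members lower and 2 higher. C3, the central component, fell from 465 and 489 to 26.8 and 30.2 CPM (-4.06 ± 0.12), and the proteases that start the classical pathway fell with it, C1s1 from 373 and 380.1 to 17.5 and 20.5 CPM (-4.31 ± 0.11) and C1ra from 261 and 268 to 29.2 and 35.8 CPM (-3.02 ± 0.11). C1s1 and C1ra each have a near copy that may share reads. Cd55, a membrane inhibitor of complement, fell from 85.03 and 103 to 6.27 and 8.72 CPM (-3.64 ± 0.16). Cd59a, which blocks the membrane attack complex, was 1 of the 2 that rose (0.43 ± 0.15), the other being Cfi (1.91 ± 0.66). Chemokine and inflammatory genes fell in 16 of 29 cases and rose in 6 (median -0.40). Cxcl5 and Cxcl1, attractants of neutrophils, fell from 316 and 295 to 19.9 and 28.4 CPM (-3.65 ± 0.16) and from 43.5 and 38.4 to 7.63 and 8.72 CPM (-2.32 ± 0.11). Cxcl12, the ligand of Cxcr4, fell from 2713 and 2744 to 1544 and 1596 CPM (-0.80 ± 0.08). The alarmin gene Il33 fell from 50.8 and 54.4 to 4.196 and 5.802 CPM (-3.38 ± 0.15) while its receptor gene Il1rl1 rose from 0.885 and 1.16 to 13.5 and 14.3 CPM (3.76 ± 0.15). Ptgs2, the inducible cyclooxygenase, rose from 24.3 and 26.02 to 390.3 and 384 CPM (3.94 ± 0.17), and so did Tnfaip3, an inhibitor of NF-kappaB (1.57 ± 0.09), and the membrane-bound chemokine gene Cx3cl1 (2.04 ± 0.11). Adjusted p for the metabolic, imprinted and immune genes given as changed was 0.041 or less. Cd59a and Grb10 lost the call without each of the 4 libraries in turn (adjusted p up to 0.221 and 0.124), Slc38a4 without all but replicate 2 of the untreated group (up to 0.141), and Cfi without replicate 2 of either group (up to 0.235). Cd59a and Cfi also lost it with DESeq2 (0.0672 and 0.108).

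The response in control cells was then set against the mean of the responses under PRMT1 siRNA, p53 siRNA and both. The difference passed the test for 41 genes (0.265%) in the direction of a higher response with control siRNA and for 94 (0.607%) in the direction of a lower one, and 2089 genes reached an unadjusted p under 0.05. In the fit of 15 libraries the counts were 343 and 454. The control libraries enter both this difference and the response described above. Pappa, a protease that frees insulin-like growth factors from their binding proteins, had the largest excess. It went from 3.41 and 4.84 to 46.05 and 39.5 CPM with control siRNA, from 9.98 and 9.56 to 17.1 and 17.6 CPM with PRMT1 siRNA, from 6.85 and 6.72 to 17.4 and 6.81 CPM with p53 siRNA and from 6.31 and 7.65 to 18.7 and 20.2 CPM with both (difference 2.33 ± 0.37, adjusted p = 0.0139, a call lost without either untreated control library or replicate 1 of the treated ones). Col7a1 showed 1.83 ± 0.20 (adjusted p = 0.00145). Untreated, it read 1.90 and 2.27 CPM with control and 2.04 and 1.68 CPM with p53 siRNA. With PRMT1 siRNA and with both, it read 4.52 and 4.16 and 4.01 and 4.31 CPM. Alcam, a cell adhesion molecule gene, read 120 and 123 CPM with control siRNA and TGF-beta against 40.5 to 79.9 CPM in the other 6 treated libraries, and its responses were 1.18, 0.30, -0.09 and 0.14 with control, PRMT1, p53 and both siRNAs (difference 1.07 ± 0.13, adjusted p = 0.00206). Serpini1, a neuronal serpin gene, gave 1.29 ± 0.26 (adjusted p = 0.0454) and Npas3, a transcription factor gene, 1.04 ± 0.20 (adjusted p = 0.0355), calls that were lost in all but 3 and 4 of the 16 fits without 1 library.

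The 5 largest deficits were in genes that fell in every siRNA treatment and fell further with control siRNA. Clu, clusterin, ended at 2.34 and 3.22 CPM with control siRNA, at 25.1 and 30.8 CPM with PRMT1 siRNA, at 8.07 and 12.7 CPM with p53 siRNA and at 34.4 and 34.9 CPM with both, from 260 to 404 CPM in all 8 untreated libraries (difference -2.81 ± 0.23, adjusted p = 0.000376). Saa3, an acute phase protein gene, gave -3.85 ± 0.40 (adjusted p = 0.00125), Steap4, a metalloreductase gene, -2.15 ± 0.15 (adjusted p = 9.1e-05), Islr, a leucine-rich repeat protein gene, -1.89 ± 0.21 (adjusted p = 0.00145), and Cxcl5 -1.78 ± 0.17 (adjusted p = 0.000773). The untreated levels differed between siRNA treatments as well, most widely for Saa3 and Cxcl5: Cxcl5 read 260 to 316 CPM with control or p53 siRNA and 521 to 607 CPM with PRMT1 siRNA or both. All 5 kept the call in the 16 fits that left out 1 library each.

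**Figure D4:**
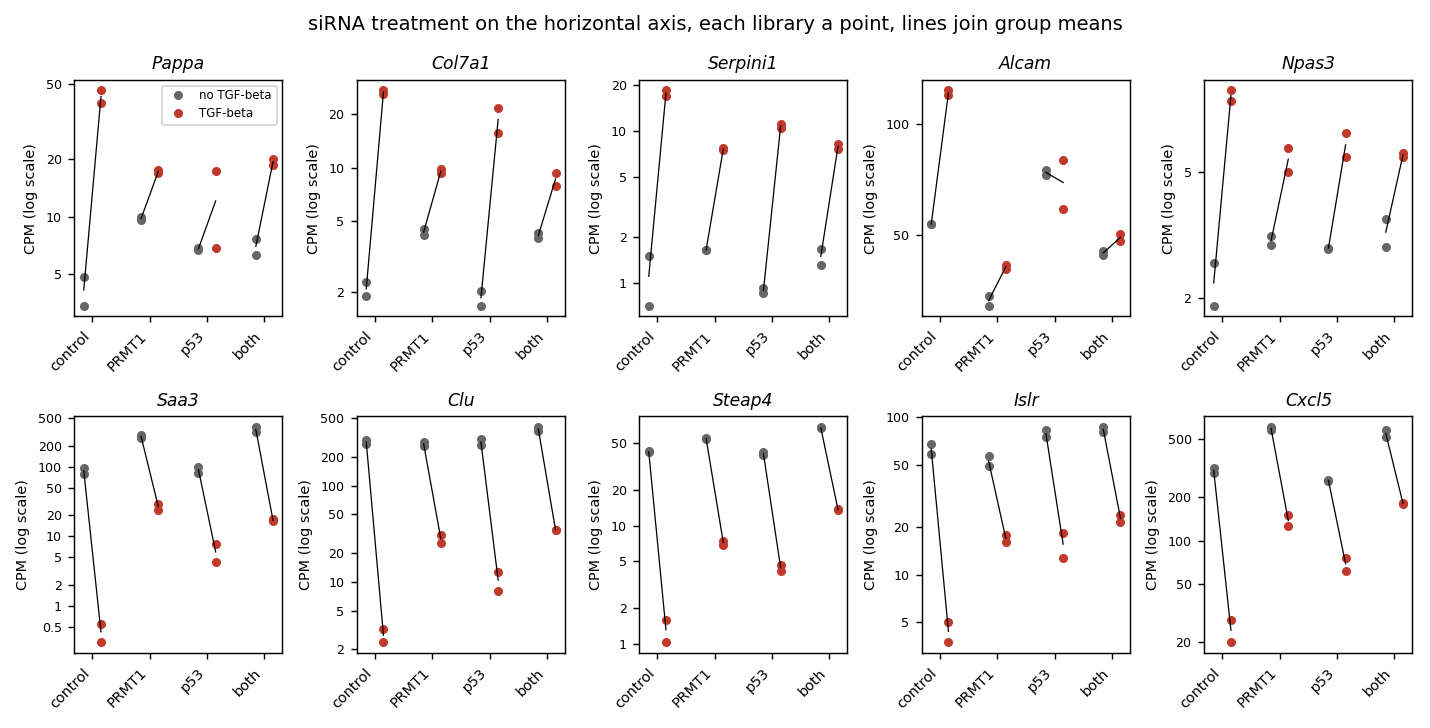
CPM (log axis) in each library of the 4 siRNA treatments (horizontal axis) without (grey) and with (red) TGF-beta, for the 5 genes with the largest excess (upper row) and the 5 with the largest deficit (lower row) of the control response, with lines joining group means (n = 2 per group). The treated control libraries of Clu, 2.34 and 3.22 CPM, lie below the other 6 treated libraries.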

How the data were processed

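Total RNA of MEC1 cells was enriched for poly(A) RNA and sequenced, per the labels' protocols. The table deposited by the authors gives expected counts for each gene. Reads had been aligned and counted on mm10 with tools that include TopHat2 and Partek, per the submitters' processing notes; versions and annotation were not given in the sources used here. Of its nonzero values 60.0% were whole within 0.01, and values were rounded to whole counts. Depth ran from 19617874 to 30759317 counts per library over the 16 libraries. Sample titles gave the groups and replicates.

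All 16 libraries entered a fit with a mean for each group in edgeR 4.0.16 under R 4.3.3, with TMM scaling and the filterByExpr filter, and 15494 genes were tested by its quasi-likelihood F test. The threshold was an adjusted p of 0.05 (Benjamini-Hochberg), and SEs were taken from the F statistic. Alternatives were DESeq2 1.42.0, RLE factors, no filter, 15 libraries, the 4 libraries alone, a replicate block, offsets for a trend with GENCODE vM21 transcript length and leaving out each library. The procedure was tested on simulated data with a smaller spread than the 16 libraries and without a library that stands apart. That run does not show how the procedure does with such a library. Promoters are RefSeq's, build GRCm38.p6.

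The comparison, the gene lists and the rule for named genes were chosen with earlier results of these data known. The rule takes called genes of at least 5 CPM without overlap (15 largest log2 rises and falls, 10 by CPM, 5 of the difference between responses) and, per list, up to 5 called members in each direction by adjusted p and 3 not called, all members of the TGF-beta pathway lists, and fixed genes. Markers of the line and of other cell types were checked. Lists got no test of their own.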

Additional observations from a re-analysis of the deposited data

Results flagged for a closer look

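Each of these 10 genes was singled out because its TGF-beta response differed between groups: the log2 response with control siRNA minus the mean of the responses under PRMT1 siRNA, p53 siRNA and both passed edgeR's test over all genes. The genes were the 5 largest differences in each direction. The response was higher with control siRNA by 2.33 for Pappa, 1.83 for Col7a1, 1.29 for Serpini1, 1.07 for Alcam and 1.04 for Npas3. It was lower by a log2 difference of -3.85 for Saa3, -2.81 for Clu, -2.15 for Steap4, -1.89 for Islr and -1.78 for Cxcl5. Col7a1 responded by 3.67 with control siRNA and by 1.14, 3.33 and 1.06 under PRMT1, p53 and both siRNAs, so that its response under p53 siRNA lay close to that with control siRNA. Steap4 responded by -4.95, -2.91, -3.20 and -2.29 in the same order, and Islr by -3.84, -1.63, -2.33 and -1.88. Adjusted p in the fit of 15 libraries was 0.0104 or less for all 10. In p53 siRNA with TGF-beta, replicate 2 is the library that stands apart, and Pappa read 17.4 CPM in replicate 1 and 6.81 CPM in replicate 2; its part in the difference of Pappa is seen in the fit without it, which gave 2.15.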

How the results depend on the processing

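The count of genes called in the TGF-beta response stayed within 1.5 times the 5950 under DESeq2 (5874), RLE factors, no low-count filter, length offsets, only the 4 libraries, 15 libraries and 1 library left out (4358 to 4656; 2005 to 2091 higher and 2353 to 2640 lower). The genes called higher became 4277 with length offsets and 15 libraries together. The labels share replicate numbers, but deviations from the group means did not pair them (r = -0.0753), and with the replicate block 5663 genes were called, 2587 higher and 3076 lower, and 101 for the difference between responses. That difference depended on the settings more: 343 higher and 454 lower (797) with 15 libraries, 417 and 529 (946) with no low-count filter, 62 and 142 (204) with length offsets, 390 and 509 (899) with length offsets and 15 libraries, and 119 and 201 (320) with DESeq2. Leaving out each of the 16 libraries gave 39 to 5702 genes, 7 to 2682 higher and 31 to 3020 lower. The 5702 came when the partner of the library that stands apart was left out, so that this library was alone in its group and assumed to vary like the others. Leaving out the library that stands apart gave 797, and the other 14 gave 39 to 91. Of the genes named, Tgfb3 changed sign, to -0.012 with length offsets and -0.013 with these and 15 libraries. Smad2, Zeb1, Rhoa, Fscn1 and P4hb passed the test with 15 libraries. With no low-count filter Tgfb2, Smad4, Cd59a, Slc38a4, Cfi and Parva lost the call (adjusted p from 0.0541 to 0.171), and Cfi also lost it with the replicate block (0.053) and with only the 4 libraries (0.0655). Serpini1 and Npas3 lost theirs with the block (0.0817 and 0.0549). The cause of these changes was not tested. With 2 libraries per group, small changes and genes of few counts are seen least well. Where a group read under 1 CPM, the log2 change rests on few counts and its size is uncertain. TGF-beta dose and time, strand and annotation were not given in the sources used here.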

Other observations

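Some of the genes that gained or lost most in CPM belong to no list above. Fn1, fibronectin, gained more CPM than any other called gene with groups that do not overlap, from 3726 and 4594 to 10746 and 11248 CPM (1.40 ± 0.24, adjusted p = 0.000718). The binding protein gene of insulin-like growth factors Igfbp3 fell from 932 and 889 to 129.9 and 140.1 CPM (-2.75 ± 0.10, adjusted p = 2.73e-09), in the cells in which Igf2 fell and Pappa rose. Fth1, the ferritin heavy chain gene, fell from 1527 and 1314 to 568 and 605 CPM (-1.28 ± 0.19, adjusted p = 0.00027), and Gm26809 from 1063 and 1222 to 120.4 and 135 CPM (-3.16 ± 0.23, adjusted p = 7.11e-07), a gene whose span overlaps an antisense gene, so its reads cannot be assigned to 1 strand.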
